A study of Homo sapiens with 8 samples.

Results

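The comparison of carboplatin alone with the control treatment was made in human lung adenocarcinoma cells, a line of the non-small cell kind. Its name is not given in the labels. The comparison holds the 2 carboplatin arrays and the 2 control arrays, 4 of the 8 arrays of a study on PPARγ ligands and platinum drugs, and was chosen by these treatment titles. Carboplatin was given at 10 µM, and the control cells received control medium, described in the design as DMSO or control. The other arrays, 2 with rosiglitazone and carboplatin together and 2 with rosiglitazone alone at 1 µM, served to ask whether the carboplatin difference recurred when both arms also held rosiglitazone, a PPARγ ligand. For the combination no dose is repeated in the labels. All cells were harvested after 24 h, and all groups carry the same cell line label and the same serum-containing medium. It is not stated that a group's arrays hold separate cultures, so each p-value reflects only array-to-array spread, which may be technical.

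Carboplatin forms platinum adducts and crosslinks between the bases of DNA, which block replication and transcription. Stalled forks activate the checkpoint kinases ATR and CHK1, and damage stabilises the transcription factor p53 in cells that keep it. p53 then raises transcription of genes for cell cycle arrest, for its own degradation, for death receptors and BCL2 family proteins, for repair and for secreted stress signals. Crosslinks are removed by nucleotide excision repair, the Fanconi anaemia pathway and homologous recombination.

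RNA was read on Affymetrix arrays with 1 or more probe sets to a gene, and 13329 of 22215 probe sets were bright enough to be tested. The median deposited signal was 37.6 and 44.6 on the carboplatin arrays, against 45.8 and 36.2 on the control arrays, so that brightness varied within each group and overlapped between them. Across the tested probe sets the 2 carboplatin arrays correlated at 0.976 and the 2 control arrays at 0.975, while carboplatin 2 and control 1 reached 0.979. Of the keratin genes of simple epithelium, KRT7, KRT8 and KRT18 were bright, between 10.7 and 12.5 on the log2 scale on the carboplatin and control arrays, and KRT19 was dimmer, between 7.39 and 7.57. The lung lineage gene NKX2-1 and the epithelial adhesion gene EPCAM were dim, below the limit set for testing. Over the 17 epithelial markers with a probe set the summed signal was 10550 and 10360 with carboplatin, against 11130 and 11430 in control. The summed signal of each of the squamous, neuroendocrine, fibroblast, leukocyte and endothelial marker lists was 250 or less on every carboplatin and control array, and 0 of their 8 tested members lay at an unadjusted p under 0.05. Endothelial markers summed to 40.97 and 44.1 with carboplatin, against 63.3 and 57.5 in control.

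Levels are given as quantile normalized log2(signal + 16), so differences of dim genes are understated. Differences are log2 values, carboplatin minus control, with the standard error (SE) from limma over 2 arrays per group, and the small number of arrays limits their precision. A probe set was called at an adjusted p under 0.05 (limma, Benjamini-Hochberg over 13329 probe sets). On that rule 2 probe sets were called higher with carboplatin (0.015% of those tested) and 0 lower. At an unadjusted p under 0.05 there were 376 higher (2.82%) and 313 lower (2.35%), or 5.17% together, where 666.4 probe sets would pass by chance. The median absolute difference was 0.14 and the median SE 0.20. A difference of at least 1 was seen for 29 probe sets higher and 14 lower with carboplatin.

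CDKN1A encodes p21, the inhibitor of cyclin-dependent kinases that p53 raises to hold cells before replication. Its level was 9.10 and 9.06 on the carboplatin arrays, against 7.43 and 7.62 on the control arrays. The deposited signals behind these levels were 424 and 533 with carboplatin, against 172 and 148 in control. Both carboplatin arrays lay far above both control arrays, and each pair was tight. CDKN1A rose by 1.55 ± 0.18 (2.93-fold, limma adjusted p = 0.0257). In bulk RNA such as this, more cells with a transcript and more of it per cell cannot be told apart, nor can fewer cells and less per cell.

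ERF encodes an ETS family repressor that the kinase ERK moves out of the nucleus. Its level was 8.41 and 8.30 with carboplatin, against 7.01 and 6.62 in control, and its signal was 260 and 308 with carboplatin, against 123 and 66.6 in control. The groups were apart, with the wider spread in control. ERF rose by 1.54 ± 0.18 (2.90-fold, limma adjusted p = 0.0257). Each of these genes is read by 1 probe set, so neither value has a second probe set beside it. Both calls were lost with the deposited scaling (limma adjusted p = 0.32 for CDKN1A and 0.29 for ERF), without the filter on dim probe sets (0.21 for both) and without the intensity trend (0.25 and 0.24, in the same order). Both were also lost with median scaling (0.064 and 0.17), without control 1 (0.13 and 0.077), without control 2 (0.17 for both), without carboplatin 1 (0.42 for both) and without carboplatin 2 (0.16 and 0.12), while CDKN1A alone was lost without either rosiglitazone array (0.056) and ERF alone with only the 4 arrays compared (0.096).

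**Figure D1:**
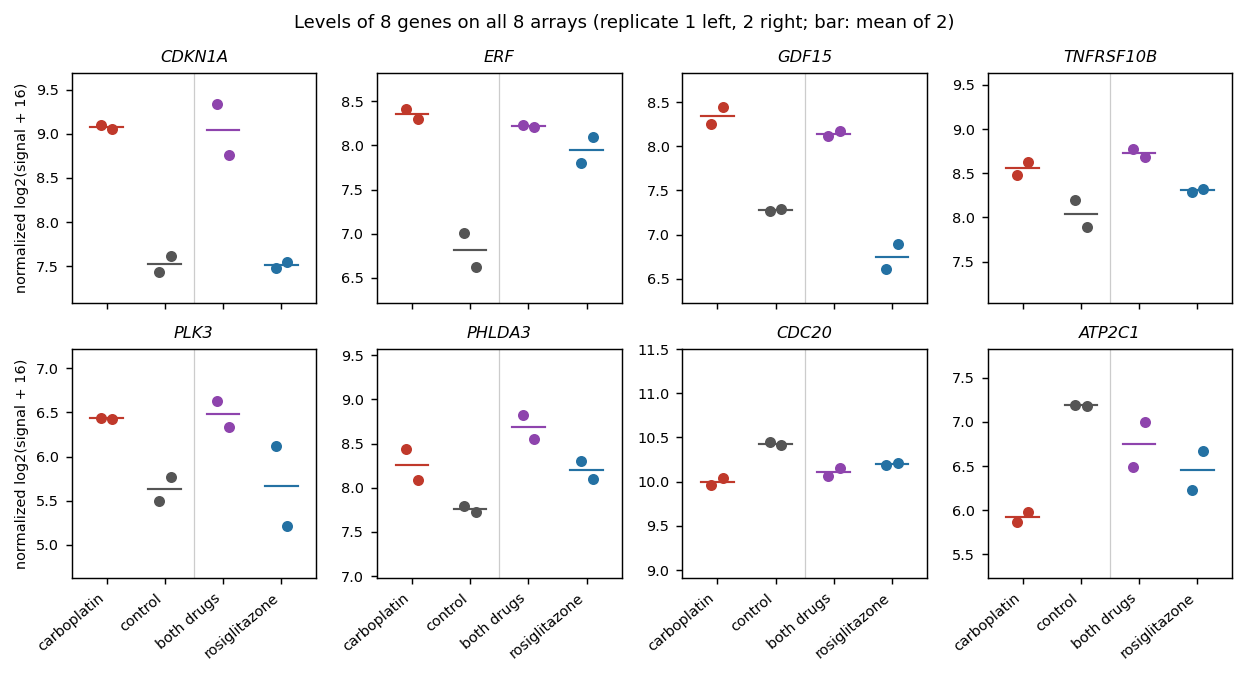
Quantile normalized log2(signal + 16) of 8 genes on each of the 8 arrays, with points for arrays 1 (left) and 2 (right) of a group and a bar at their mean; each panel has its own level on the y axis but the same span. CDKN1A, GDF15, TNFRSF10B, PLK3 and PHLDA3 lay higher with carboplatin than in control and higher with both drugs than with rosiglitazone, whereas ERF stood low only on the control arrays and the carboplatin differences of CDC20 and ATP2C1 were larger than those with rosiglitazone present.

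GDF15 is a secreted TGF-β family cytokine of cell stress. It stood at 8.25 and 8.44 with carboplatin, against 7.26 and 7.29 in control. The groups did not overlap, and the difference was 1.07 ± 0.16, which missed the threshold (limma adjusted p = 0.161). A second GDF15 probe set lay at the floor of the scale on these 4 arrays, at signals of 1.36 and 1.64 with carboplatin, against 2.40 and 1.22 in control, and was not tested. The plot of the levels of 8 genes shows CDKN1A, ERF and GDF15 on every array, together with the rosiglitazone groups.

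Of 84 genes listed as p53 targets, 57 could be tested. A further 16 had no probe set with 1 gene symbol in the annotation used, and the remaining 11 were below the limit on brightness. Of the 57, 46 were higher with carboplatin and 11 lower, or 80.7% higher, against 45.6% of all 8023 genes tested. Their median difference was 0.19, against -0.02 over all genes. The count called was 1 (CDKN1A), against a background of 0.0249% of genes called higher. At an unadjusted p under 0.05 there were 13 higher and 1 lower, where 2.28% of all genes were higher and 2.56% lower at that threshold. In 25 of the 57 both carboplatin arrays lay above both control arrays, and in 4 both lay below, where 14.6% of all genes lay apart upward and 20.6% downward. These genes were listed with an earlier result on p53 targets in these same arrays known, so the counts are a description and no independent evidence. The count of 13 was 6 with the deposited scaling, 8 with median scaling and 7 without carboplatin 2, and the median was 0.12, 0.11 and 0.14 in those settings. Apart from CDKN1A, the smallest limma adjusted p on the list was 0.161, for GDF15, followed by 0.875 for ICAM1 and TNFRSF10B. Both arrays of rosiglitazone alone also lay above both control arrays for XPC, ICAM1, PMAIP1, PHLDA3, TNFRSF10B and TIGAR. A level above control was thus not particular to carboplatin for these targets. CDKN1A, GDF15, PLK3, PLK2, PLXNB2, EDA2R and SESN1, also higher at an unadjusted p under 0.05, did not show this.

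**Figure D2:**
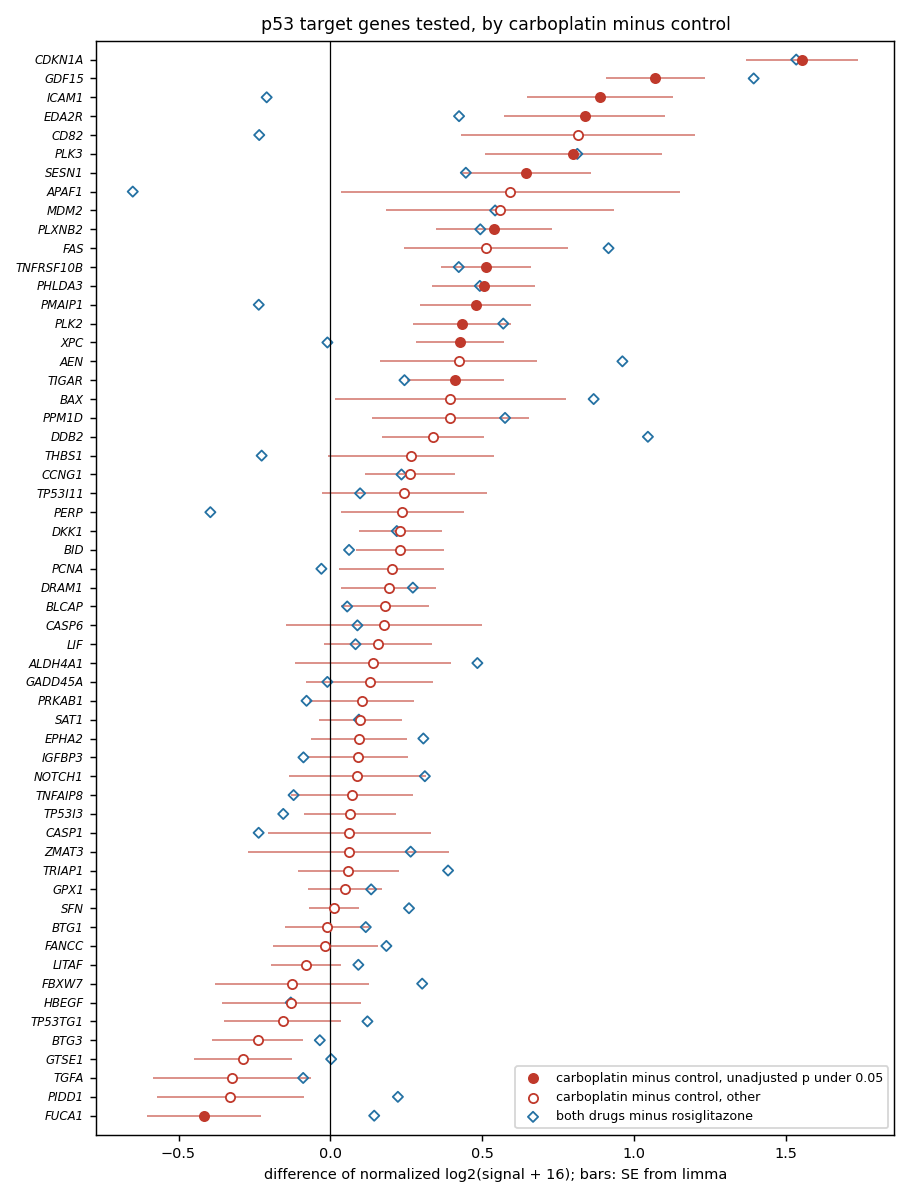
Difference in quantile normalized log2(signal + 16) for each of the 57 p53 target genes tested, carboplatin minus control (circles, with bars of 1 SE from limma; filled where the unadjusted p was under 0.05) and both drugs minus rosiglitazone (open diamonds). Most circles lie right of 0, with CDKN1A and GDF15 farthest right, and several diamonds of genes such as ICAM1, XPC and PMAIP1 lie at or left of 0.

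Among the 15 tested p53 targets of cell cycle arrest and feedback, 10 were higher and the median was 0.13. After CDKN1A came the polo-like kinase genes PLK3 and PLK2, which are induced by damage. PLK3 was at 6.44 and 6.43 with carboplatin, against 5.49 and 5.77 in control, a difference of 0.80 ± 0.29. PLK2 was at 8.90 and 9.07 with carboplatin, against 8.73 and 8.38 in control (0.43 ± 0.16). Both kept their carboplatin arrays above their control arrays, PLK2 by a narrow gap. MDM2, the ubiquitin ligase that degrades p53, has 5 probe sets, of which 1 was bright enough to test. That probe set read 6.20 and 5.94 with carboplatin, against 5.75 and 5.28 in control (0.56 ± 0.37), and the other 4 differed by between 0.01 and 0.10. PPM1D, a phosphatase that switches the damage signal off, differed by 0.39 ± 0.26, and CCNG1, a cyclin of the p53 response, by 0.26 ± 0.15. The arrest genes GADD45A (0.13 ± 0.21) and SFN (0.01 ± 0.08) were close to 0, SFN at a bright 12.04 and 12.06 with carboplatin, against 12.02 and 12.05 in control. CDKN1A was the 1 member of this group that passed, where 0.0249% of all genes were called higher. In 8 of the 15 both carboplatin arrays lay above both control arrays, and in 2 both lay below. Over all genes 14.6% lay apart upward and 20.6% downward.

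Death genes were the group with the highest share upward, 17 of 18 tested, with a median of 0.23. TNFRSF10B, which encodes the TRAIL receptor DR5, was at 8.48 and 8.62 with carboplatin, against 8.19 and 7.89 in control (0.51 ± 0.15). Its other probe sets differed by 0.65 and 0.65, and each of the 3 had both carboplatin arrays above both control arrays. EDA2R, a receptor for the ligand ectodysplasin A2, was dim, at 6.04 and 5.76 with carboplatin, against 5.19 and 4.94 in control (0.84 ± 0.27). EDA2R averaged 5.06 in control, below the limit of 5.38 for testing. It was tested, and so counted among the p53 targets higher, only because other groups were higher. The death receptor gene FAS gave a mixed picture across its 4 probe sets, all of them higher. The brightest stood at 6.61 and 7.38 with carboplatin, against 6.598 and 6.36 in control (0.51 ± 0.27), so that carboplatin 1 was level with control 1. In contrast, 2 of the dimmer FAS probe sets differed by 0.98 and 0.83, with the carboplatin arrays clear of the control arrays. On these the arrays of rosiglitazone alone were also above both control arrays, at 6.53 and 6.06 and at 6.80 and 6.58. On the remaining FAS probe sets they were not. PMAIP1, which encodes the BH3-only protein NOXA, was at 8.52 and 8.78 with carboplatin, against 8.38 and 7.96 in control (0.48 ± 0.18). PHLDA3, whose product restrains AKT, was at 8.44 and 8.08 with carboplatin, against 7.79 and 7.72 in control (0.50 ± 0.17). For the pore-forming BAX the carboplatin arrays themselves disagreed, at 7.04 and 7.74, against 7.10 and 6.89 in control (0.40 ± 0.38), and the same held for the apoptosome gene APAF1, at 5.17 and 6.502 with carboplatin, against 5.35 and 5.13 in control.

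Repair, redox and metabolic targets were higher in 9 of 11 cases, with a median of 0.14. XPC, which recognises distorted DNA at the start of nucleotide excision repair, was at 8.09 and 8.23 with carboplatin, against 7.70 and 7.77 in control (0.43 ± 0.14). With rosiglitazone alone XPC was at 8.07 and 8.21, and both drugs minus rosiglitazone gave -0.01 ± 0.14. The sestrin gene SESN1, an inhibitor of growth signalling under stress, was at 7.21 and 7.03 with carboplatin, against 6.51 and 6.44 in control (0.64 ± 0.21). TIGAR, a phosphatase that slows glycolysis, differed by 0.41 ± 0.16. In each of these the 4 arrays fell into separate pairs. DDB2, the other damage sensor of excision repair, was at 8.90 and 9.19 with carboplatin, against 8.69 and 8.73 in control (0.34 ± 0.17). FUCA1, a lysosomal fucosidase, went the other way, at 6.91 and 6.68 with carboplatin, against 7.17 and 7.25 in control (-0.42 ± 0.19).

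Secreted and surface proteins, GDF15 among them, were higher in 10 of 13 cases, with a median of 0.16. ICAM1, an adhesion molecule that NF-κB also controls, was at 6.63 and 6.16 with carboplatin, against 5.49 and 5.52 in control (0.89 ± 0.24), and its second tested probe set differed by 0.39. PLXNB2, a receptor for semaphorins, was at 8.89 and 9.22 with carboplatin, against 8.28 and 8.75 in control (0.54 ± 0.19). The tetraspanin gene CD82 had 1 control array close to the carboplatin arrays, at 6.73 and 6.69 with carboplatin, against 5.45 and 6.35 in control (0.81 ± 0.38). The growth factor gene TGFA differed by -0.32 ± 0.26 and HBEGF, another EGF receptor ligand, by -0.13 ± 0.23, with overlapping arrays for each.

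The carboplatin difference was measured again in 4 arrays that share none with the comparison above, both drugs against rosiglitazone, fitted with the same normalization and estimate of spread. In that comparison 3 probe sets were called higher (0.0225%) and 0 lower. CDKN1A rose there by 1.53 ± 0.18 (limma adjusted p = 0.0277), with levels of 9.34 and 8.75 with both drugs, against 7.48 and 7.55 with rosiglitazone. GDF15 rose by 1.39 ± 0.16 (limma adjusted p = 0.0277), with 8.11 and 8.17 under both drugs, against 6.61 and 6.89 under rosiglitazone. The third called probe set has no single gene symbol in the annotation used. ERF was at 8.23 and 8.21 with both drugs, against 7.80 and 8.09 with rosiglitazone (0.27 ± 0.18), so all 4 of these arrays were above the control arrays. The test of the difference between the 2 comparisons called 0 of 13329 probe sets, with 793 at an unadjusted p under 0.05 (5.95%). For ERF the difference between the comparisons was -1.26 ± 0.25 (limma unadjusted p = 0.00033), which did not pass (limma adjusted p = 0.819). ERF was named for its large carboplatin difference, which enters this value. Its carboplatin difference is therefore not shown to change with rosiglitazone. Under the deposited scaling the test of the difference called 3 probe sets. The CDKN1A and GDF15 calls in this comparison were lost, with 0 probe sets called higher, under the deposited scaling, with dim probe sets kept, without the intensity trend and with only the 4 arrays compared. The count was also 0 without control 1, control 2, rosiglitazone 1, rosiglitazone 2 or array 1 of both drugs, and 1 without array 2 of both drugs.

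Across all 13329 probe sets the 2 comparisons had the same sign in 45.9% of cases, with a Pearson correlation of -0.0998 and a Spearman correlation of -0.104. These are correlations across probe sets, which are not independent replicates. Genes past an unadjusted p of 0.05 with carboplatin alone were little different. Of 183 such genes higher with carboplatin, 90 (49.2%) were also higher with both drugs than with rosiglitazone, and of 205 lower, 92 (44.9%) were also lower. At an unadjusted p under 0.05 in both comparisons, 18 genes were higher in both and 3 lower in both, where 2.17% of all genes were higher and 1.79% lower with both drugs than with rosiglitazone. Over all probe sets the balance was the reverse: of those past that threshold in both, 26 were higher and 5 lower in both, while 23 higher and 14 lower with carboplatin had the opposite sign with rosiglitazone present. Of the 18, 7 were on the p53 list, namely CDKN1A, GDF15, PLK3, PLK2, TNFRSF10B, PHLDA3 and PLXNB2. With rosiglitazone present 40 of the 57 p53 targets were higher (median 0.14), where 4246 of all 8023 genes were. By group these were 14 of 15 arrest genes (median 0.26) and 12 of 18 death genes (0.09). The rest were 8 of 11 repair, redox and metabolic genes (0.14) and 6 of 13 secreted and surface genes (-0.03). The count of 18 was 4 with the deposited scaling, 9 with median scaling and 11 without carboplatin 2, and it was 29 when dim probe sets were kept.

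The other 11 genes higher in both were chosen by no list. RPS27L, which encodes a ribosomal protein S27 paralog that p53 induces, was bright at 11.16 and 11.26 with carboplatin, against 10.73 and 10.76 in control (0.47 ± 0.13), and 10.90 and 11.24 with both drugs, against 10.46 and 10.71 with rosiglitazone (0.49). TNFSF9, the ligand of the costimulatory receptor 4-1BB, stood at 7.20 and 7.07 with carboplatin, against 6.29 and 6.42 in control (0.78 ± 0.23), and differed by 0.82 with rosiglitazone present. NINJ1, a membrane protein of plasma membrane rupture, differed by 0.31 ± 0.14 and then by 0.44. FHL2, a LIM domain cofactor, differed by 0.39 ± 0.14 and 0.42, and ALDH3A1, an aldehyde dehydrogenase, by 0.26 ± 0.11 and 0.32. EPS8L2, a relative of the actin regulator EPS8, differed by 0.55 ± 0.17 and 0.64, and the small GTPase gene RAP2B by 0.53 ± 0.17 and 0.45. The membrane scaffold gene STOM (0.72 ± 0.19 and 0.59), WDR76 (0.64 ± 0.26 and 0.90), POMZP3 (0.58 ± 0.13 and 0.42) and MEFV, the pyrin gene (1.01 ± 0.34 and 0.74), complete the 11. The arrays of MEFV overlapped when rosiglitazone was present. In control MEFV averaged 4.94 and WDR76 5.36, below the limit of 5.38 for testing. These genes were tested only because other groups were higher. Lower in both were TFAP2A, a transcription factor of epithelium (-0.59 ± 0.15 and -0.39), HINT1, a nucleotide hydrolase (-0.20 ± 0.09 and -0.20), and PAK1IP1 (-0.69 ± 0.21 and -0.70). The second tested TFAP2A probe set differed by -0.14. Apart from CDKN1A and GDF15, none of the 21 passed the adjusted threshold in either comparison.

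**Figure D3:**
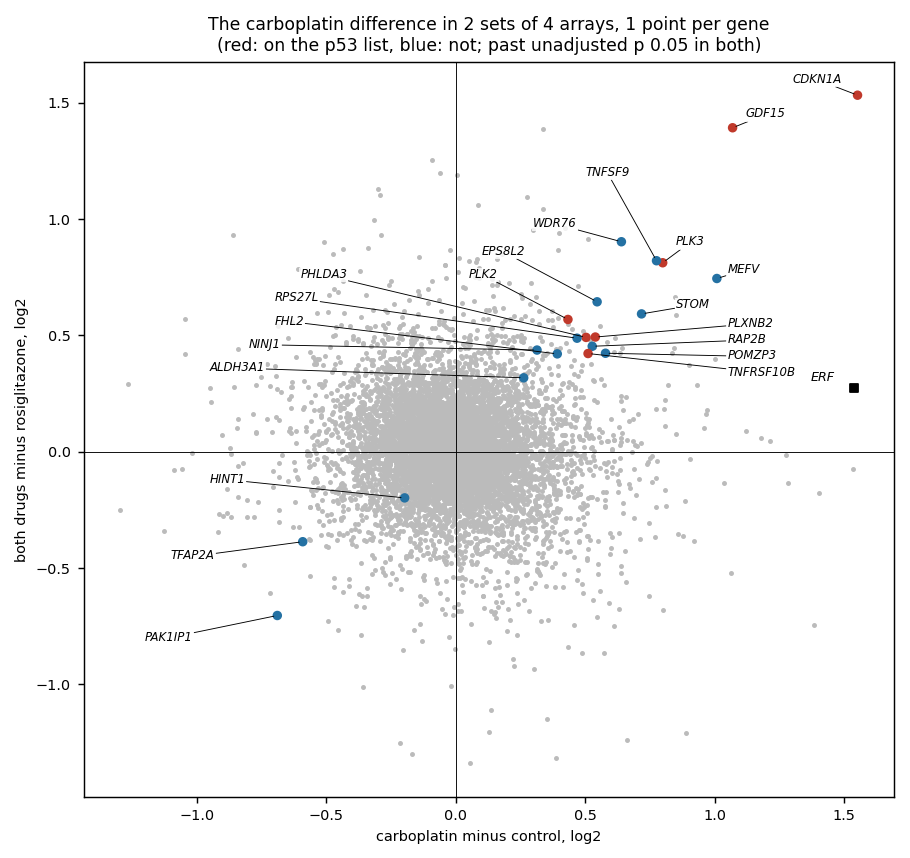
Each grey point is 1 of 8023 genes, with carboplatin minus control on the x axis and both drugs minus rosiglitazone on the y axis, both as log2 differences; coloured points are the 18 genes higher and the 3 lower in both at an unadjusted p under 0.05 (red, on the p53 list; blue, not), and the black square is ERF. The cloud shows no slope upward, CDKN1A and GDF15 stand alone at the upper right, and ERF lies far right at 0.27 on the y axis.

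A further 9 genes had an unadjusted p under 0.05 in both comparisons with opposite signs. PLCG1, which encodes phospholipase C gamma, was at 7.09 and 6.61 with carboplatin, against 5.58 and 6.34 in control (0.89 ± 0.27), but at 5.38 and 5.57 with both drugs, against 6.63 and 6.74 with rosiglitazone (-1.21). The transmembrane gene DCBLD2 differed by 0.57 ± 0.23 and -0.87, TPSG1, a tryptase, by 0.80 ± 0.25 and -0.68, and GTF3C4 by 0.35 ± 0.16 and -0.36. The GTPase gene RRAS went the other way (-0.46 ± 0.19 and 0.50), as did DNM1, a dynamin whose other tested probe set differed by 0.29 with carboplatin (-0.38 ± 0.15 and 0.48), CCDC85B (-0.38 ± 0.16 and 0.48), C1orf216 (-0.38 ± 0.17 and 0.37) and the respiratory chain gene NDUFA1 (-0.35 ± 0.14 and 0.33). None of these 9 passed the adjusted threshold for the difference between the comparisons (limma adjusted p = 0.819 for PLCG1). TPSG1 averaged 4.86 in control, below the limit of 5.38 for testing, and was tested only because other groups were higher.

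Upstream sequence is shown for 5 of the 18 genes higher in both comparisons. These are the pair with the largest differences, PLK2 and RPS27L with a p53 half-site, and PLXNB2 with a paired core. EPS8L2 and RAP2B also had a half-site and are not shown. RefSeq windows of GRCh38.p14 were found for 13 of the 18 genes, and the 250 bases before each start were searched on both strands. Capitals mark the GC box GGGCGG or its reverse complement in CDKN1A and GDF15 and also the TATA box TATAAA in GDF15, the p53 half-site consensus in PLK2 and RPS27L, and in PLXNB2 the paired p53 core CATGNNNNNNCATG. The PLXNB2 window held no match to the half-site consensus. Other motifs in a window are left in lower case.
CDKN1A, chr6:36678464-36678713, plus strand: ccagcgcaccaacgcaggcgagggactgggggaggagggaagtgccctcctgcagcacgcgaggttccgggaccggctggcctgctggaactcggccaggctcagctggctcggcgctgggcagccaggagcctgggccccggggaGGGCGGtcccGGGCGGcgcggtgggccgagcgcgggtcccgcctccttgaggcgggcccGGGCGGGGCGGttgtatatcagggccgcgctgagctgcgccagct
GDF15, chr19:18385908-18386157, plus strand: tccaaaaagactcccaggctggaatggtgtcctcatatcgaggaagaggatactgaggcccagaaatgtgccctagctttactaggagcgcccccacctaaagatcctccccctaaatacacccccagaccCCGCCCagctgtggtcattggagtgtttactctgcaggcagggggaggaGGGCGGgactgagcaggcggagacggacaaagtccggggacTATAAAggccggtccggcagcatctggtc
PLK2, chr5:58460087-58460336, minus strand: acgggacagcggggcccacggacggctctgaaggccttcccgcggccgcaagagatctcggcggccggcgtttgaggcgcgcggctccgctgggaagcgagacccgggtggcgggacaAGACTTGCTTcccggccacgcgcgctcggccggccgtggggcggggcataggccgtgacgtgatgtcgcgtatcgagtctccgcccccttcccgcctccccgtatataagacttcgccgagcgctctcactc
RPS27L, chr15:63157478-63157727, minus strand: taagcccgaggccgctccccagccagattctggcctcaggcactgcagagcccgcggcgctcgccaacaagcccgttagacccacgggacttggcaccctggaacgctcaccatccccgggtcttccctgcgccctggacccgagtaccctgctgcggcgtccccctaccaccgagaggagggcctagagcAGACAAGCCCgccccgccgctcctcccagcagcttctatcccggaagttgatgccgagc
PLXNB2, chr22:50301670-50301919, minus strand: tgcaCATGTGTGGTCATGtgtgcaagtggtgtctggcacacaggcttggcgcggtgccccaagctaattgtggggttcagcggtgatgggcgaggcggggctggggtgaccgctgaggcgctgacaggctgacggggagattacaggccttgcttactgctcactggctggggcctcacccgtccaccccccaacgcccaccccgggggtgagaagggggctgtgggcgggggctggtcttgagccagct
CDKN1A has 4 GC boxes in this window, the last 2 overlapping, and GDF15 has 2 GC boxes and a TATA box that begins 29 bases before the start. The half-site begins 132 bases before the start in PLK2 and 59 in RPS27L, and the paired core of PLXNB2 lies at the far end, 246 bases before. The 13 genes have 17 windows, since some have several starts. A GC box was in 12 of the 17 and in 42.6% of all 35116 windows in the table. A half-site was in 4 of the 17 (of EPS8L2, PLK2, RAP2B and RPS27L) and in 5.57% of all windows, a TATA box in 4 and in 10.7%, and the paired core in 1 and in 0.296%. A match is a stretch of letters and not a binding site, and known p53 sites can lie outside 250 bases.

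Beyond the p53 list the 15 genes of smallest p higher with carboplatin, among those with arrays apart, held few of one kind. CHRNB2, a nicotinic acetylcholine receptor subunit, was at 6.64 and 6.59 with carboplatin, against 4.81 and 5.36 in control (1.54 ± 0.28, limma adjusted p = 0.386). UNC93B1, which carries Toll-like receptors to endosomes, was at 6.74 and 6.43 with carboplatin, against 4.89 and 5.46 in control (1.40 ± 0.30). RAPGEF1, an exchange factor for the GTPase RAP1, differed by 1.28 ± 0.28. In control these 3 genes averaged 5.08, 5.18 and 4.84, below the limit of 5.38 for testing. They were tested only because other groups were higher, and their differences have wider errors than that of CDKN1A. PCOTH, given below, averaged 4.98 in control and was likewise tested only because other groups were higher. Brighter were EHD2, an ATPase of caveolae (0.97 ± 0.21), CANT1, a nucleotidase of the Golgi and endoplasmic reticulum (0.93 ± 0.19), and CRELD2, a chaperone of the endoplasmic reticulum (0.69 ± 0.15). Other tested probe sets differed by 0.37 and 0.02 for EHD2 and by 0.05 for CANT1, each with overlapping arrays. The RNA-binding gene RBM5 was at 8.14 and 7.99 with carboplatin, against 7.53 and 7.33 in control (0.63 ± 0.17), and its other tested probe set differed by -0.13. KRT10 (0.61 ± 0.13) and ATXN10 (0.53 ± 0.11) also had a probe set of the opposite sign, at -0.09 and -0.05. PCOTH (1.06 ± 0.24), POMZP3 (0.58 ± 0.13) and SCAMP3, a secretory carrier gene (0.46 ± 0.12), make up the 15 with CDKN1A, ERF and GDF15. All of the 15 but CDKN1A, GDF15 and POMZP3 also had both arrays of rosiglitazone alone above both control arrays. With rosiglitazone alone CHRNB2 was at 6.18 and 5.88, UNC93B1 at 6.69 and 6.97, and CRELD2 at 9.14 and 8.82. For these genes a level above control was thus not particular to carboplatin. Of the 15, 10 were also higher with both drugs than with rosiglitazone, 3 of them at an unadjusted p under 0.05. For the difference between the comparisons 11 had an unadjusted p under 0.05, where 418 of 8023 genes did. That difference contains the carboplatin values by which the 15 were chosen, so the 11 are no independent sign of a change with rosiglitazone.

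**Figure D4:**
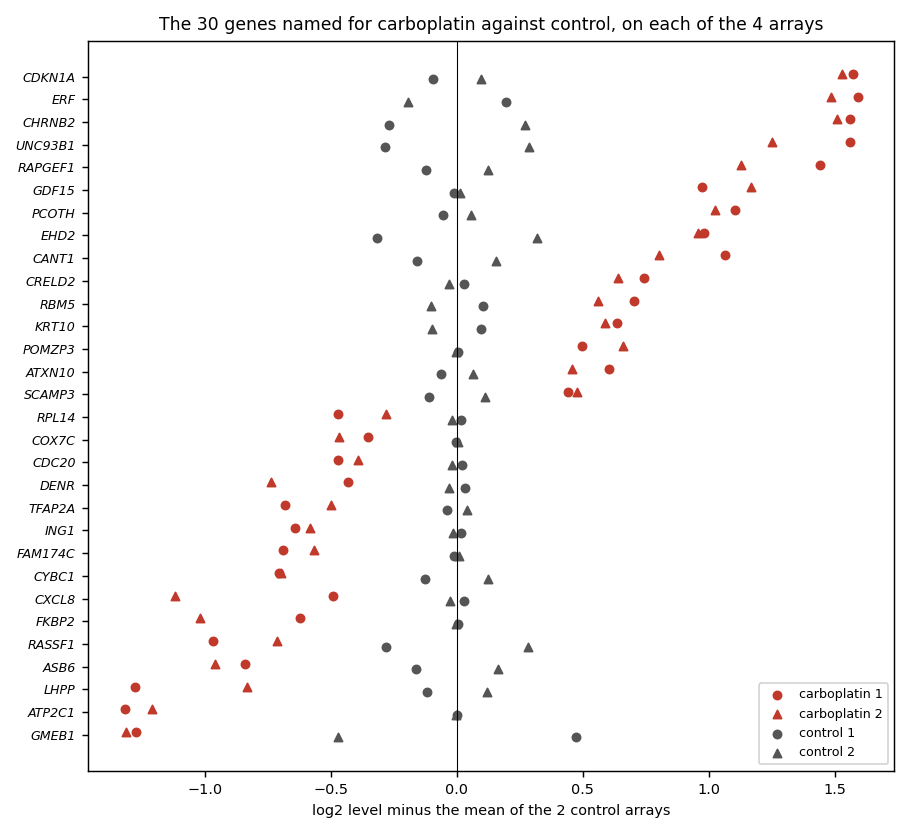
Level of each of the 30 genes on each carboplatin array (red) and control array (grey), as log2 difference from the mean of the 2 control arrays; circles are replicate 1 and triangles replicate 2. By the rule that chose them, both red points lie beyond both grey points for every gene, and the control arrays of GMEB1, EHD2, CHRNB2, UNC93B1 and RASSF1 are spread more widely than those of ATP2C1, CDC20 and COX7C.

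Among the 15 lower genes none passed, with limma adjusted p-values of 0.386 to 0.875. ATP2C1, the calcium and manganese pump of the Golgi, was at 5.87 and 5.97 with carboplatin, against 7.19 and 7.18 in control (-1.26 ± 0.23). That difference belonged to 1 of its 3 tested probe sets, the other differences being -0.18 and -0.07. FKBP2, a prolyl isomerase of the endoplasmic reticulum, was at 7.64 and 7.24 with carboplatin, against 8.27 and 8.26 in control, and ASB6, a SOCS box protein, at 6.14 and 6.02 with carboplatin, against 6.82 and 7.14 in control. CDC20, which activates the anaphase-promoting complex, was bright and tight, at 9.96 and 10.04 with carboplatin, against 10.45 and 10.41 in control. LHPP, a phosphatase, differed by -1.06 ± 0.27, RASSF1, a RAS-association tumour suppressor, by -0.84 ± 0.23, ING1, a reader of histone marks, by -0.61 ± 0.16, and DENR, a factor of translation reinitiation, by -0.58 ± 0.16. Probe sets disagreed in sign for ING1, COX7C and RPL14. With carboplatin GMEB1 averaged 4.90 and LHPP 5.06, below the limit of 5.38 for testing. These genes were tested only because other groups were higher. All of the 15 but GMEB1 and RASSF1 also had both arrays of rosiglitazone alone below both control arrays. With rosiglitazone alone ATP2C1 was at 6.23 and 6.67, and FKBP2 at 7.70 and 7.35. A level below control was thus not particular to carboplatin for these genes. The chemokine gene CXCL8 was at 7.17 and 6.54 with carboplatin, against 7.69 and 7.63 in control, so its carboplatin arrays were far apart from each other. Its second tested probe set differed by -0.16, with overlapping arrays. With rosiglitazone present 11 of the 15 were again lower, 1 of them (TFAP2A) at an unadjusted p under 0.05. For the difference between the comparisons 10 had an unadjusted p under 0.05, where 418 of 8023 genes did. Here too that difference contains the values by which the genes were chosen.

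Crosslink repair and checkpoint genes gave no called member. Of 19 tested genes of the Fanconi anaemia pathway and homologous recombination, 7 were higher, the median was -0.07 and 0 had an unadjusted p under 0.05, where 4.84% of all genes did. FANCE, a subunit of the Fanconi core complex, differed by -0.34 ± 0.22 and the nuclease gene MRE11 by -0.47 ± 0.30. Of 24 nucleotide excision repair genes 13 were higher, with a median of 0.02 (-0.03 with median scaling), and XPC and RPA1 were past an unadjusted p of 0.05. RPA1, which coats single-stranded DNA, was at 9.40 and 9.78 with carboplatin, against 9.29 and 9.13 in control (0.38 ± 0.16), and its other probe set differed by 0.08. For translesion and mismatch repair 3 of 11 were higher, with a median of -0.04, POLI, a translesion polymerase, being at -0.37 ± 0.30. Checkpoint genes were higher in 8 of 21 cases, with a median of -0.07. HUS1, a subunit of the checkpoint clamp, differed by 0.53 ± 0.21 and its partner RAD9A by -0.35 ± 0.20. The second tested HUS1 probe set differed by 0.02, with overlapping arrays.

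Among cell cycle genes 4.08% of the G2 and mitosis list and 3.77% of the G1/S list were past an unadjusted p of 0.05, against 4.84% of all genes, of which 4365 of 8023 were lower. Of 49 genes of G2 and mitosis 36 were lower, with a median of -0.08, and CDC20 and STMN1 were past an unadjusted p of 0.05. STMN1, a microtubule destabiliser, was at 7.38 and 7.31 with carboplatin, against 8.001 and 7.74 in control (-0.53 ± 0.20). The mitotic kinases AURKA (-0.32) and PLK1 (-0.25) lay below 0, while CDK1 (0.28), CCNA2 (0.26) and RACGAP1 (0.34) lay above. Of 53 genes of G1/S and DNA replication 31 were lower, with a median of -0.07. MCM5, a subunit of the replicative helicase, was at 9.44 and 9.11 with carboplatin, against 9.72 and 9.65 in control (-0.41 ± 0.14), and CHAF1A, a chromatin assembly factor, differed by -0.35 ± 0.15 with all 3 of its probe sets lower. MCM7 (-0.26 ± 0.13, its other probe set at -0.003) and MCM2 (-0.20 ± 0.11) did not reach an unadjusted p of 0.05. Among 12 CDK inhibitors and G1 regulators CDKN1A was the 1 called, against 0.0249% of all genes called higher. Of the 12, 9 were lower and the median was -0.09. CDKN1B, the p27 gene, differed by -0.11, and CDKN2A, the p16 gene, by -0.57 ± 0.40 with overlapping arrays. The G2 and mitosis median was -0.17 and the G1/S median -0.11 with median scaling, which moved the median of all probe sets to -0.05.

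Of the 26 BCL2 family and caspase genes tested 14 were higher, with a median of 0.02 (-0.03 with median scaling). Beside PMAIP1, BCL2L1, the survival gene BCL-XL, was past an unadjusted p of 0.05, at 8.20 and 8.32 with carboplatin, against 7.93 and 7.92 in control (0.33 ± 0.15), and all 3 of its probe sets were higher. DIABLO, a mitochondrial antagonist of apoptosis inhibitors, differed by -0.27 ± 0.13. Platinum and copper handling genes were split, 10 of 21 higher with a median of -0.02 and 0 past an unadjusted p of 0.05. SLC31A1, the copper importer CTR1, differed by 0.27, the copper chaperone gene ATOX1 by -0.28 ± 0.14, the efflux transporter genes ATP7A and ATP7B by 0.07 and -0.10, and ABCC2, an exporter of conjugates, by 0.20 ± 0.16. The extrusion transporter gene SLC47A1 was at -0.35 ± 0.19. Metallothioneins, which bind zinc and platinum, ranged from -0.26 ± 0.12 for MT2A to 0.16 ± 0.19 for MT1E, and their probe sets can read each other's transcripts. The other MT1E probe set differed by -0.20.

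Of 23 NRF2 targets 17 were higher, by small amounts, with a median of 0.08. NQO1, a quinone reductase, was very bright at 12.50 and 12.58 with carboplatin, against 12.34 and 12.42 in control (0.16 ± 0.09). Its other probe sets differed by 0.09 and -0.16. HMOX1, heme oxygenase, differed by 0.18 ± 0.14, and OSGIN1 was the 1 member past an unadjusted p of 0.05, at -0.50 ± 0.21. With rosiglitazone present 8 of the 23 were higher. Of 26 ATF4 and unfolded protein response genes 13 were higher, with a median of 0.02 that was -0.07 both with the deposited and with median scaling. ATF3, a stress-induced transcription factor, was at 5.16 and 5.60 with carboplatin, against 5.89 and 6.22 in control (-0.67 ± 0.25), TRIB3, a pseudokinase of the same response, differed by -0.46 ± 0.20, and DNAJB9, a chaperone of the endoplasmic reticulum, by 0.43 ± 0.17. Heat shock proteins were higher in 9 of 17 cases, with a median of 0.03 that was -0.05 with either scaling. HSPE1 (0.53 ± 0.25) rested on a low control 2.

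**Figure D5:**
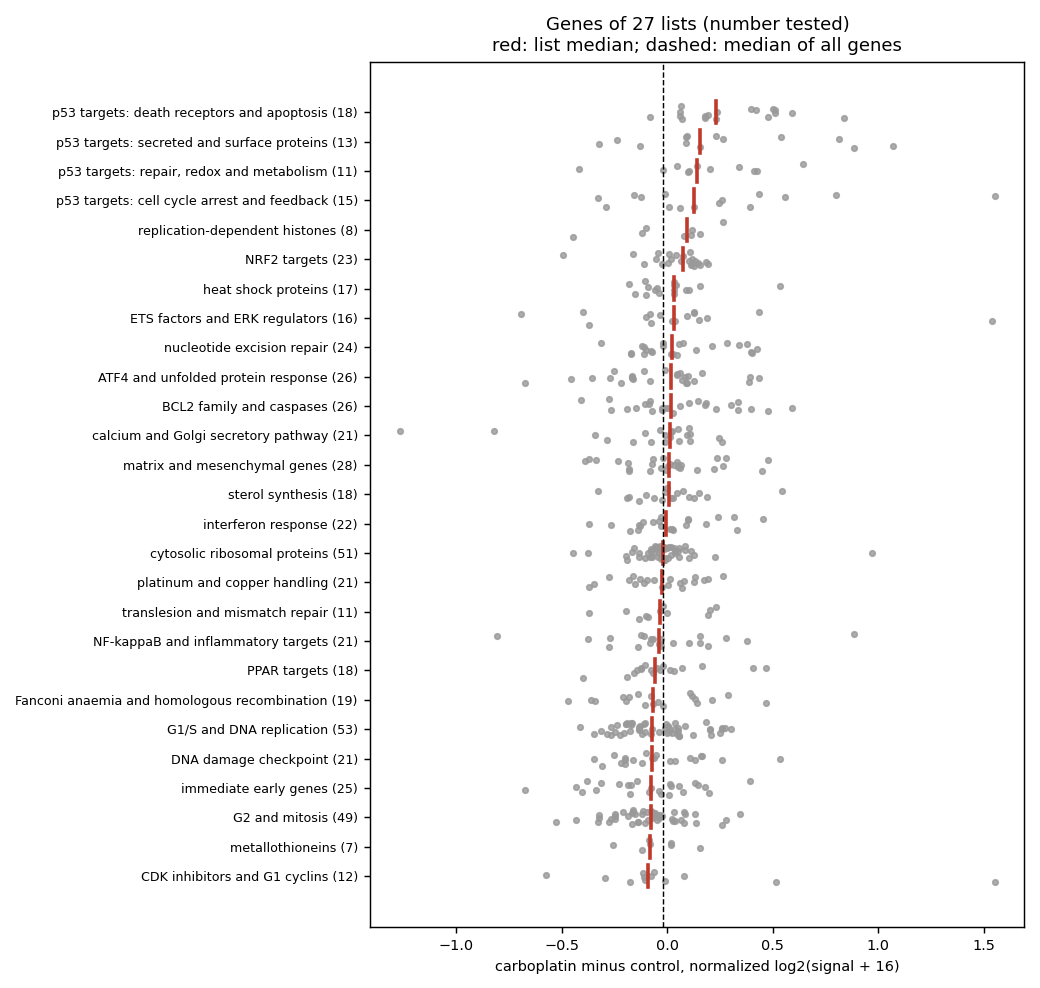
Carboplatin minus control in quantile normalized log2(signal + 16) for every tested member of 27 gene lists (grey points, 1 per gene; the number tested is in brackets), with the list median in red and the median of all genes dashed. The 4 groups of p53 targets have the 4 highest medians, 0.13 to 0.23, and the other 23 medians lie between -0.09 and 0.10.

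Immediate early genes were higher in 10 of 25 cases, with a median of -0.07, and the 3 past an unadjusted p of 0.05 were all lower. Beside ATF3 these were FOSL1, the AP-1 subunit FRA1, at 9.98 and 9.61 with carboplatin, against 10.32 and 10.03 in control (-0.38 ± 0.15), and SPRED2, an inhibitor of RAS signalling (-0.43 ± 0.17). ERF was the 1 called gene among 16 tested ETS factors and ERK regulators, against 0.0249% of all genes called higher. The median of the 16 was 0.03, or -0.02 with the deposited scaling and -0.03 with median scaling. MAPK3, the gene of ERK1, a kinase that phosphorylates ERF, was at 6.29 and 6.73 with carboplatin, against 7.32 and 7.08 in control (-0.69 ± 0.20), and the ETS factor gene ELF4 had 2 tested probe sets of opposite sign. The brighter ELF4 probe set was at 7.28 and 7.34 with carboplatin, against 7.87 and 7.54 in control (-0.40 ± 0.18), and the other at 6.95 and 7.06 with carboplatin, against 5.69 and 6.17 in control (1.07), so no direction can be given for the gene. ETV4, an ETS activator, was at -0.37 ± 0.22 here and 0.78 ± 0.22 with rosiglitazone present. Among 21 NF-κB targets 8 were higher, and ICAM1 and CXCL8 lay at the opposite ends.

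Of the 21 calcium and secretory pathway genes 11 were higher, and beside ATP2C1 and FKBP2 the coat GTPase gene SAR1A (-0.34 ± 0.14) and the calcium pump gene ATP2A2 (0.25 ± 0.10) were past an unadjusted p of 0.05. Other tested probe sets differed by -0.07 and 0.02 for SAR1A and by -0.15 and 0.59 for ATP2A2. Among 51 ribosomal protein genes 34 were lower with a median of -0.02, equal to that of all genes. RPL34 was at 10.97 and 10.98 with carboplatin, against 11.47 and 11.38 in control (-0.45 ± 0.15). The dim RPLP2 probe set tested differed by 0.97 ± 0.35. Histone genes are short of data here, with 8 of 36 tested and a median of 0.10. PPAR targets were higher in 6 of 18 cases, with a median of -0.06. HADHA, of mitochondrial fatty acid oxidation, differed by 0.40 ± 0.15 in 1 of 3 probe sets, and ANGPTL4, a secreted lipase inhibitor, by -0.40 ± 0.23. Of the sterol synthesis genes, 18 in number, 10 were higher, and SREBF2, the transcription factor that controls them, was at 7.28 and 7.19 with carboplatin, against 6.82 and 6.56 in control (0.54 ± 0.21). Interferon genes (11 of 22 higher, 0 past an unadjusted p of 0.05) and matrix genes (15 of 28 higher, TGFB2 at 0.48 ± 0.21) had medians of -0.01 and 0.01, the second being -0.04 with median scaling.

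The genes most like CDKN1A over the 8 arrays, by Pearson correlation of log2 levels, were EPS8L2 (0.962), GDF15 (0.926), SIRT3 (0.926), TMEM120B (0.919) and C5orf22 (0.917). Since CDKN1A separates the 4 arrays with carboplatin from the 4 without it, these values mostly restate that split. Those most like ERF were RHEB (0.932), COPS5 (0.931), LRRN3 (0.923), PHACTR2 (0.922) and MSC (0.917). ERF was low on the 2 control arrays alone, and with carboplatin RHEB, a GTPase that activates mTOR, was at 10.67 and 10.63, against 10.38 and 10.30 in control (0.31 ± 0.10), although its other tested probe sets differed by -0.02, 0.22 and -0.39. The muscle and B cell repressor gene MSC differed by 0.61 ± 0.25. In control MSC averaged 5.30 and LRRN3 5.17, below the limit of 5.38 for testing, and they were tested only because other groups were higher. Of these 10 genes GDF15, EPS8L2, RHEB and MSC had an unadjusted p under 0.05 with carboplatin against control.

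The surfactant gene SFTPB shows how far probe sets can part. Its brightest tested probe set read 5.95 and 5.89 with carboplatin, against 6.002 and 5.80 in control, a difference of 0.02. Another tested SFTPB probe set read 5.91 and 6.01 with carboplatin, against 4.43 and 4.49 in control, a difference of 1.499 (limma adjusted p = 0.386). Its control values lay below the limit of 5.38 for testing, so it was tested only because other groups were higher. Both probe sets are assigned to the gene, and SFTPB and the FAS probe sets were singled out after their values were seen.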

How the data were processed

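The series' value table of 8 arrays, 2 in each of 4 groups, was analysed. The deposited values are linear signal intensities between 0.032 and 14940.6, and how the authors' software scaled and background-corrected them is not given in the sources used here. Of 22283 probe sets, 68 controls were dropped. The other 22215 were set to log2(intensity + 16), quantile normalized over 8 arrays, and kept where the mean reached the 40th percentile (5.38), leaving 13329. limma 3.58.1 in R 4.3.3 fitted 1 mean per group with an intensity trend (4 residual and 7.1 prior degrees of freedom), and p-values were adjusted by Benjamini-Hochberg. The test was checked on simulated data.

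A gene was represented by its brightest tested probe set with 1 gene symbol (8023 genes). The platform annotation gave 1 symbol to 19071 probe sets, several to 1043 and none to 2169, and 19059 were found by Entrez identifier. Members and gene lists were chosen with earlier results of these data known. Genes were named if called, if among the 15 of smallest p in a direction with arrays apart, if a list member at an unadjusted p under 0.05 (otherwise up to 4 of smallest p), if 1 of the 5 genes most correlated with CDKN1A or ERF, or for probe sets of CDKN1A, ERF, GDF15, TNFRSF10B and MDM2. Other list members were named after their values were seen. With 2 arrays against 2, an exact permutation test cannot give a two-sided p below 0.333. Deviations of same-numbered arrays correlated at -0.0632 between carboplatin and control, so numbers were not taken to pair arrays. Over all pairs of groups these correlations ran from -0.11 to 0.253, the highest between both drugs and carboplatin. Alternatives changed the scaling, pseudocount, filter, trend, arrays fitted and covariates, or left out 1 array.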

Additional observations from a re-analysis of the deposited data

How the results depend on the processing

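The count of probe sets called higher with carboplatin than in control (2 as reported) was 0 under the deposited scaling, under median scaling, with dim probe sets kept, without the trend and with the replicate block, and 1 with only the 4 arrays compared. Leaving out 1 array gave 0 to 2: 0 without any carboplatin or control array, 1 without either rosiglitazone array and 2 without either array of both drugs. For both drugs against rosiglitazone the count higher (3) was 0 with the deposited scaling, dim probe sets kept, no trend, only the 4 arrays compared and the replicate block, and 0 to 3 with 1 array left out, and the count lower (0) was 1 under the deposited and 1 under median scaling. The test of the difference between the comparisons (0) called 3 with the deposited scaling. The next alternatives were chosen after seeing the data. Genes higher in both comparisons (18) numbered 4 under the deposited scaling, 9 under median scaling, 29 with dim probe sets kept and 11 to 21 with 1 array left out. Genes lower in both (3) numbered 0 under the deposited scaling, 1 under median scaling, 9 with dim probe sets kept, 7 without the trend, 5 with the replicate block, 6 with array brightness as a covariate and 1 to 7 with 1 array left out. The p53 targets higher at an unadjusted p under 0.05 (13) numbered 6 under the deposited scaling, 8 under median scaling and 7 to 16 with 1 array left out. Probe sets at an unadjusted p under 0.05, 376 higher and 313 lower as reported, were 129 and 89 under the deposited scaling and 220 and 269 under median scaling. The cause of these shifts was not tested. With the replicate block the limma adjusted p of CDKN1A and of ERF was 0.068. Of the values of 42 genes followed through the alternatives, 725 kept their direction and side of the threshold, 21 lost the call (all CDKN1A or ERF) and 0 reversed. Only CDKN1A and ERF were called as reported, so for the other genes keeping the side of the threshold says little. A gene whose probe set was not tested under an alternative has no value there. Of 504 list medians under alternatives, 469 moved by less than the spread between arrays. Dim probe sets near the floor of 16 limit what differences could be seen.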
